A study of Mus musculus with 6 samples.

Results

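The genes described here are 9 genes of transforming growth factor beta (TGF-beta) and activin signalling, chosen by their symbols out of 55276 in the table of expression values. They are the ligands Tgfb1, Tgfb2 and Tgfb3, the receptors Tgfbr1 and Tgfbr2, the latent TGF-beta binding protein Ltbp2, the activin subunits Inhba and Inhbb, and follistatin, Fst. RNA was sequenced from mouse oviducts taken on day 2 of pregnancy. The groups were 3 libraries from PgrCreCdc42f/f females and 3 libraries from Cdc42f/f females, all of strain C57BL/6 and, per the methods of the study, at least 8 weeks old and littermates. Both groups carried loxP sites around exon 2 of both Cdc42 alleles. The PgrCreCdc42f/f females in addition carried 1 allele of the progesterone receptor gene, Pgr, that drives Cre recombinase, so that deletion follows cells in which Pgr is active. The study's own staining showed loss of CDC42, a small GTPase of cell polarity, in the isthmus of these oviducts and not in the ampulla, while the RNA came from oviducts with no segment singled out. No library carried PgrCre without floxed Cdc42, so the driver allele and the deletion cannot be told apart. The labels call the libraries biological replicates, the number of animals behind each is not stated, and p values measure the spread between these libraries.

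TGF-beta ligands are secreted in a latent form that is tethered to the extracellular matrix by binding proteins and freed there. They bind the type II receptor TGFBR2, which recruits and activates the type I receptor TGFBR1, and receptor-activated Smad proteins then carry the signal to the nucleus. Activins are dimers of inhibin beta subunits that signal through a related pair of receptors, and follistatin binds and blocks them. In reproductive tissues this family is known for roles in ovarian function, in smooth muscle and stromal differentiation and in the deposition of matrix.

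Values are RPKM (reads per kilobase of exon, scaled to the depth of the library), so that levels of different genes can be compared per length. Recovered reads came to between 42.4 and 46.2 M (M, 1e6) in PgrCreCdc42f/f libraries and between 42.7 and 46.4 M in Cdc42f/f libraries. Markers of oviduct epithelium were detected in every library, at levels that differed widely between markers. Of 7 secretory markers 3 averaged higher in PgrCreCdc42f/f libraries and 4 lower, and of 7 multiciliated markers 1 higher and 6 lower. Pax8, the secretory marker stained in the study, lay between 12.8 and 18.6 RPKM in PgrCreCdc42f/f libraries and between 23.0 and 32.3 RPKM in Cdc42f/f libraries. Ovgp1, the oviductin of secretory cells, lay between 1574 and 3027 RPKM in PgrCreCdc42f/f libraries and between 2532 and 3849 RPKM in Cdc42f/f libraries. Foxj1, the regulator of motile cilia, lay between 57.2 and 95.5 RPKM in PgrCreCdc42f/f libraries and between 83.9 and 120.4 RPKM in Cdc42f/f libraries. Cdc42 itself was measured at 113.6, 125.5 and 120.9 RPKM in PgrCreCdc42f/f oviducts, against 127.6, 130.2 and 142.4 RPKM in Cdc42f/f oviducts. The groups did not overlap, but the difference of -0.15 on the log2 scale did not pass the test (limma, Benjamini-Hochberg adjusted p = 0.36), and a value over the whole gene does not single out exon 2. The study itself reported less Cdc42 mRNA by qPCR and less CDC42 protein by western blot in oviducts of this genotype. Pgr, the Cre driver, averaged 10.8 ± 0.21 RPKM in PgrCreCdc42f/f libraries and 13.5 ± 0.96 RPKM in Cdc42f/f libraries (SD, n = 3 each), with an adjusted p of 0.105 in limma.

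All 9 members were detected in all 6 libraries. Of the 9, 8 reached 0.5 RPKM in at least 3 of the 6 libraries and were tested with limma on log2(RPKM + 0.1) together with all 17584 genes that did so. The remaining member, Inhba, reached that level in 2 libraries. Among the 8 tested members 1 was called at an adjusted p below 0.05, the receptor gene Tgfbr1, which was higher in PgrCreCdc42f/f oviducts. The background was 291 of 17584 genes, or 1.65%, called in either direction,, with 0.762% called higher and 0.893% called lower. The median log2 difference was 0.10 over the 8 members and 0.01 over all tested genes. Tgfbr1 was also the only tested member whose 2 groups of libraries did not overlap, where 27.4% of all tested genes had groups apart (13.5% higher and 13.9% lower in PgrCreCdc42f/f). Each of these counts is 1 of 8 members, and no test of the list as a whole was made.

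**Figure D1:**
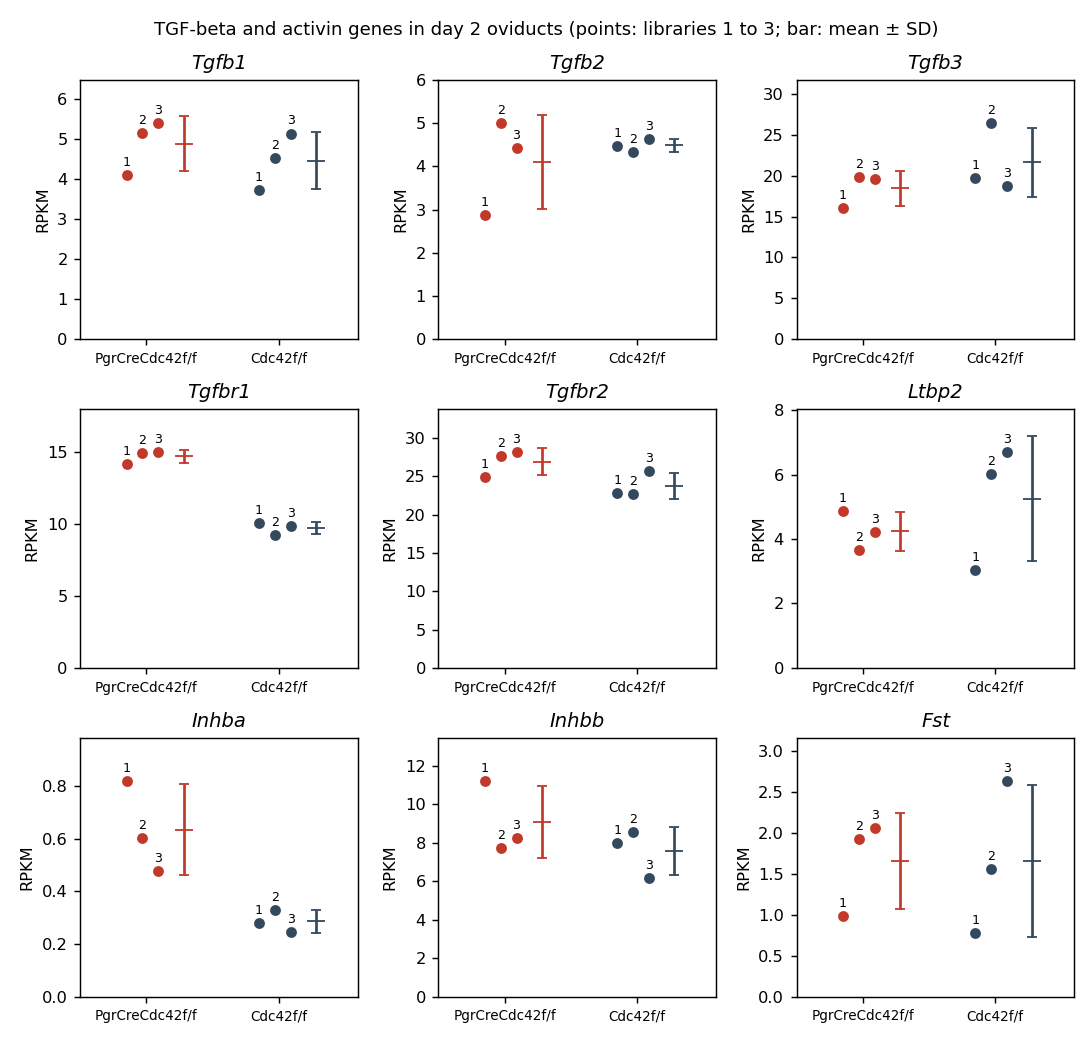
RPKM of each of the 9 genes (vertical axes, from 0, scaled per gene) in 3 PgrCreCdc42f/f libraries (red, left) and 3 Cdc42f/f libraries (dark blue, right), with replicate numbers at the points and mean ± SD as a bar. The groups lie apart for Tgfbr1 (14.17 to 15 RPKM in PgrCreCdc42f/f, 9.22 to 10.03 RPKM in Cdc42f/f) and for Inhba (0.478 to 0.82 RPKM in PgrCreCdc42f/f, 0.246 to 0.331 RPKM in Cdc42f/f), and overlap for the other 7 genes.

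The levels of the 9 genes spanned a wide range in both genotypes. In PgrCreCdc42f/f oviducts the order by mean RPKM was Tgfbr2, Tgfb3, Tgfbr1, Inhbb, Tgfb1, Ltbp2, Tgfb2, Fst and Inhba. The ranges over libraries overlapped there between Tgfb1 and Ltbp2 and between Ltbp2 and Tgfb2, and no other neighbours overlapped. In Cdc42f/f oviducts the order was Tgfbr2, Tgfb3, Tgfbr1, Inhbb, Ltbp2, Tgfb2, Tgfb1, Fst and Inhba. There the ranges of Tgfbr2 and Tgfb3 overlapped, as did each pair of neighbours from Inhbb to Tgfb1. In both genotypes Tgfb3 was the ligand with the highest level and Inhba the member with the lowest.

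Sequences are shown upstream of Tgfbr1 and Inhba, the 2 of 9 members with groups of libraries apart, as for 27.4% of all tested genes. They are the 250 bases before the start site in the RefSeq promoter table of GRCm38.p6, in which 7 of the 9 members were matched, all but Tgfb3 and Fst. Capitals mark matches to the motifs searched on both strands, which were the GC box GGGCGG, the TATA box TATAAA, the Smad motif CAGAC and the AP-1 motif TGANTCA.
Tgfbr1: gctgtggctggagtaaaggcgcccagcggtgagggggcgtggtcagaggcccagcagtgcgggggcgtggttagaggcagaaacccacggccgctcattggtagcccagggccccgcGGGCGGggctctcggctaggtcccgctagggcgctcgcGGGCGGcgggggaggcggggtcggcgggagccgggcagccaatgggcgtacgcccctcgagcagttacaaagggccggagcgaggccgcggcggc
Inhba: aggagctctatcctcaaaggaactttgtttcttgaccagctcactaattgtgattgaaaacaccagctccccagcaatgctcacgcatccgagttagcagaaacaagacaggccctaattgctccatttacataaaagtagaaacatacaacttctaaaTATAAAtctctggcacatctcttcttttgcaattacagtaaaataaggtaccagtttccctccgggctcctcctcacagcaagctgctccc
The Tgfbr1 sequence (chr4:47352972-47353221, plus strand) was 74.8% G or C and held 2 GC boxes, 133 and 95 bases before the start site at 47353222, and none of the other motifs. The table also holds a later Tgfbr1 start site at 47386216, whose window (chr4:47385966-47386215) held 1 Smad motif, 203 bases before that site, and no GC box. The Inhba sequence (chr13:16011601-16011850, plus strand) was 43.2% G or C and held 1 TATA box, 91 bases before the start site, and none of the other motifs. Of 32817 distinct promoter windows of the same length, 32.7% held a GC box, 12.4% a TATA box, 42.2% the Smad motif and 6.75% the AP-1 motif. The matches are letters found in these windows, and no binding was measured.

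The receptors carried the 1 called difference. Tgfbr1 encodes the type I receptor that passes the TGF-beta signal to Smads (chromosome 4, 47353222 to 47414931, GRCm38, read over 6534 exon bases). It was measured at 14.17, 14.91 and 15 RPKM in PgrCreCdc42f/f oviducts, against 10.03, 9.22 and 9.85 RPKM in Cdc42f/f oviducts. All 3 PgrCreCdc42f/f libraries lay above all 3 Cdc42f/f libraries, and each group was tight. The means were 14.7 ± 0.456 RPKM in PgrCreCdc42f/f and 9.70 ± 0.426 RPKM in Cdc42f/f libraries (SD, n = 3 each), a ratio of 1.51. Tgfbr1 rose by 0.59 on the log2 scale (SE 0.07, 95% interval 0.42 to 0.77, limma adjusted p = 0.0255), on 2790 to 4590 recovered reads per library. The difference stayed between 0.56 and 0.62 when any 1 library was left out. The call did not hold without PgrCreCdc42f/f replicate 2 or 3, or without Cdc42f/f replicate 1, 2 or 3 (limma adjusted p 0.102, 0.0845, 0.0601, 0.0901 and 0.0823 in that order), and held without PgrCreCdc42f/f replicate 1 (0.043).

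Tgfbr2 encodes the type II receptor that binds the ligand first (chromosome 9, 116084293 to 116175360). It was on average the most abundant member, at 24.9, 27.6 and 28.2 RPKM in PgrCreCdc42f/f oviducts, against 22.8, 22.7 and 25.7 RPKM in Cdc42f/f oviducts. The groups overlapped, since Cdc42f/f replicate 3 lay above PgrCreCdc42f/f replicate 1. The difference was 0.18 on the log2 scale (95% interval -0.03 to 0.39) with a limma adjusted p of 0.305. Whether the receptors differed from each other in this was not tested.

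Markers of smooth muscle, macrophages and endothelium had differences of the same sign as Tgfbr1, and among all 17584 tested genes 8950 had positive differences. All 8 of 8 smooth muscle markers had positive differences, with a median of 0.44 on the log2 scale and 0 called, and none was at 0. Their summed level was 2420 to 2997 RPKM in PgrCreCdc42f/f libraries and 1717 to 2660 RPKM in Cdc42f/f libraries. In Cdc42f/f replicate 3 the smooth muscle sum was 2660 RPKM, within the PgrCreCdc42f/f range, and Tgfbr1 was 9.85 RPKM. By single marker this varied. In that library Myh11 (397.8 RPKM) and Des (151.9 RPKM) lay below the lowest PgrCreCdc42f/f values of 415.4 and 159.3 RPKM. The other smooth muscle markers lay within the PgrCreCdc42f/f ranges. All 8 of 8 macrophage markers also had positive differences (median 0.62, 0 called, none at 0), with sums of 349.5 to 491.1 RPKM in PgrCreCdc42f/f and 248.5 to 268.6 RPKM in Cdc42f/f libraries. By single marker, the groups lay apart and higher for 5 of these 8, beside 13.5% of all tested genes. They overlapped for Adgre1, Csf1r and Lyz2. All 7 of 7 endothelial markers had positive differences too (median 0.19, 0 called, none at 0), with sums of 53.1 to 66.2 RPKM in PgrCreCdc42f/f and 46.0 to 58.5 RPKM in Cdc42f/f libraries. Of 7 secretory epithelium markers 3 had positive differences (Krt7 0.64, Epcam 0.39 and Cdh1 0.09) and 4 negative. Of 5 mesothelium markers 4 had positive differences and 1 negative, with 0 called in either list. The part of these cell types in the Tgfbr1 result was not tested. In bulk tissue a change in the number of cells of a type and a change in RNA per cell cannot be told apart.

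The TGF-beta ligands showed no called difference. Tgfb3 (chromosome 12, 86056745 to 86079041) was the main ligand by level, at 16.0, 19.8 and 19.6 RPKM in PgrCreCdc42f/f oviducts, against 19.7, 26.5 and 18.7 RPKM in Cdc42f/f oviducts. The groups overlapped, and Cdc42f/f replicate 2 stood above the other 5 libraries. The difference was -0.22 on the log2 scale (95% interval -0.59 to 0.16, limma adjusted p = 0.477). Of its exon bases 12.4% are shared with opposite-strand genes (2.14% for Tgfb2 and 2.51% for Fst), and whether strand was used in counting is not given.

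Tgfb1, a ligand made by many cell types including platelets and macrophages (chromosome 7, 25687002 to 25705077), had levels of 4.09, 5.14 and 5.40 RPKM in PgrCreCdc42f/f oviducts, against 3.71, 4.51 and 5.13 RPKM in Cdc42f/f oviducts. The groups overlapped almost fully, with a difference of 0.13 (95% interval -0.26 to 0.52, limma adjusted p = 0.687). Tgfb2 lies on chromosome 1 (186622792 to 186705989) and had 2.88, 5.01 and 4.42 RPKM in PgrCreCdc42f/f oviducts, against 4.48, 4.34 and 4.64 RPKM in Cdc42f/f oviducts. PgrCreCdc42f/f replicate 1 was the lowest of the 6 libraries, and the other 5 lay close together. The difference of Tgfb2 was -0.16 (95% interval -0.65 to 0.32, limma adjusted p = 0.691), and it was 0.07 without PgrCreCdc42f/f replicate 1.

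The mix of ligands within a library was compared as shares of their summed RPKM, which do not depend on how libraries are scaled. Tgfb3 made up 67.5 ± 1.91% of the sum in PgrCreCdc42f/f and 70.4 ± 4.63% in Cdc42f/f oviducts (SD, n = 3 each, exact two-sided permutation p = 0.4). Tgfb1 made up 17.8 ± 0.589% in PgrCreCdc42f/f and 14.7 ± 2.89% in Cdc42f/f oviducts (SD, n = 3 each, exact permutation p = 0.3). Tgfb2 made up 14.8 ± 2.11% in PgrCreCdc42f/f and 14.9 ± 2.23% in Cdc42f/f oviducts (exact permutation p = 1). With 3 libraries against 3 such a test cannot give a p below 0.1, and adjusted over the 5 ratios compared, the p values of the Tgfb3 and Tgfb1 shares were both 0.667 in the same exact test.

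Ltbp2 encodes a matrix protein of the latent TGF-beta binding family, found in elastic fibres (chromosome 12, 84783212 to 84876532). Its levels were 4.87, 3.66 and 4.20 RPKM in PgrCreCdc42f/f oviducts, against 3.04, 6.02 and 6.70 RPKM in Cdc42f/f oviducts. The Cdc42f/f libraries enclosed the PgrCreCdc42f/f range, with replicate 1 below and replicates 2 and 3 above it. The difference was -0.23 on the log2 scale (95% interval -0.95 to 0.48, limma adjusted p = 0.698). Without Cdc42f/f replicate 1 it was -0.58, and without Cdc42f/f replicate 3 it was -0.02. An opposite-strand gene shares 9.34% of its exon bases.

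The activin subunits differed in level by more than 10-fold in every library. Inhba encodes the beta A subunit of activin A (chromosome 13, 16011851 to 16031621), and its RPKM were 0.82, 0.604 and 0.478 in PgrCreCdc42f/f oviducts, against 0.281, 0.331 and 0.246 in Cdc42f/f oviducts. These values rest on 245, 164 and 143 recovered reads in PgrCreCdc42f/f and on 78, 98 and 76 reads in Cdc42f/f libraries. All 3 PgrCreCdc42f/f libraries lay above all 3 Cdc42f/f libraries, and within PgrCreCdc42f/f replicate 1 was the highest. The means were 0.634 ± 0.173 RPKM in PgrCreCdc42f/f and 0.286 ± 0.0426 RPKM in Cdc42f/f libraries (SD, n = 3 each), a ratio of 2.22 and a difference of 0.91 on the log2(RPKM + 0.1) scale. The two-sided p of an exact permutation test was 0.1, the lowest value that 3 against 3 libraries allow. Inhba was below the level set for the test across genes, and with no such level its limma adjusted p was 0.265. In alternatives chosen after seeing the data it did not pass either, with a limma adjusted p of 0.143 when 0.2 RPKM in 3 libraries sufficed and of 0.0952 with voom on genes of at least 10 reads in 3 libraries.

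Inhbb encodes the beta B subunit (chromosome 1, 119415465 to 119422248). Its levels were 11.2, 7.75 and 8.27 RPKM in PgrCreCdc42f/f oviducts, against 7.998, 8.57 and 6.20 RPKM in Cdc42f/f oviducts. PgrCreCdc42f/f replicate 1 was the highest library, and the groups overlapped. The difference was 0.25 on the log2 scale (95% interval -0.19 to 0.69, limma adjusted p = 0.482).

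Inhba made up 6.80, 7.24 and 5.46% of the summed Inhba and Inhbb RPKM in PgrCreCdc42f/f oviducts, against 3.39, 3.72 and 3.83% in Cdc42f/f oviducts. The groups did not overlap, and Inhbb made up the rest in every library. The mean share was 6.50 ± 0.925% in PgrCreCdc42f/f and 3.65 ± 0.226% in Cdc42f/f libraries (SD, n = 3 each, exact two-sided permutation p = 0.1, the smallest possible, and 0.5 adjusted over the 5 ratios).

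Fst encodes follistatin, the secreted antagonist of activins (chromosome 13, 114452290 to 114458951). Its levels were 0.979, 1.92 and 2.06 RPKM in PgrCreCdc42f/f oviducts, against 0.782, 1.56 and 2.63 RPKM in Cdc42f/f oviducts. Replicate 1 was the lowest in each group, Cdc42f/f replicate 3 was the highest library, and the Cdc42f/f range enclosed the PgrCreCdc42f/f range. The difference was 0.08 on the log2 scale with the widest interval among the tested members (-1.03 to 1.19, limma adjusted p = 0.939), and it was -0.34 without Cdc42f/f replicate 1 and 0.47 without Cdc42f/f replicate 3. Cdc42f/f replicate 3 was also the library with Hsd3b1, a steroidogenic enzyme of the ovary, at 3.03 RPKM, where the other 5 libraries had 0. Over the whole list of 9 ovarian markers, sums were 16.0 to 17.5 RPKM in PgrCreCdc42f/f and 12.2 to 23.6 RPKM in Cdc42f/f libraries, with the granulosa genes Fshr and Cyp19a1 at 0 in all. The part of ovarian RNA in the Fst value of that library was not tested.

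The balance of activin subunits to follistatin, as log2 of Inhba plus Inhbb over Fst RPKM, was 3.62, 2.12 and 2.09 in PgrCreCdc42f/f oviducts, against 3.40, 2.51 and 1.29 in Cdc42f/f oviducts. In both groups replicate 1 had the highest ratio, and the groups overlapped. The means were 2.61 ± 0.877 in PgrCreCdc42f/f and 2.40 ± 1.06 in Cdc42f/f libraries (SD, n = 3 each, exact permutation p = 0.9).

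**Figure D2:**
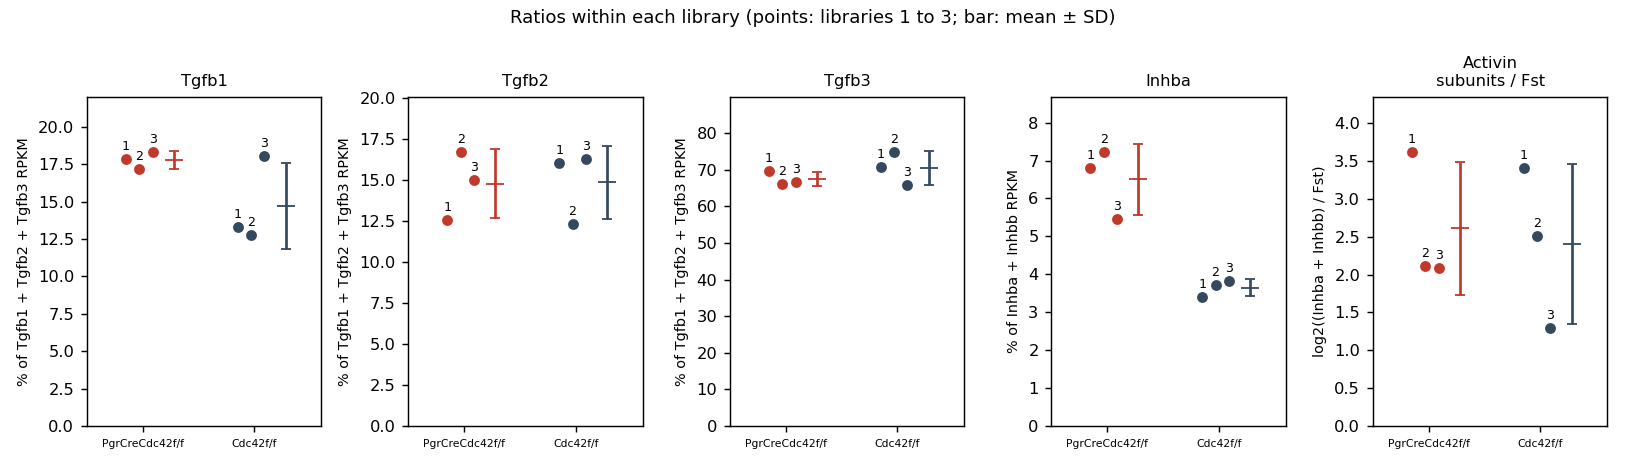
Ratios within each library (vertical axes, from 0) for 3 PgrCreCdc42f/f libraries (red, left) and 3 Cdc42f/f libraries (dark blue, right), with mean ± SD as a bar: the percent of summed TGF-beta ligand RPKM held by Tgfb1, Tgfb2 and Tgfb3, the percent of Inhba plus Inhbb RPKM held by Inhba, and log2 of both activin subunits over Fst. The groups lie apart for the Inhba share (5.46 to 7.24% in PgrCreCdc42f/f, 3.39 to 3.83% in Cdc42f/f) and overlap in the other panels.

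The wider pathway was read from 7 lists of genes, 103 genes with the members left out, of which 83 were tested. Of these 83, 1 was called higher in PgrCreCdc42f/f oviducts and 0 were called lower, beside 0.762% and 0.893% of all tested genes. The unadjusted limma p was below 0.05 for 19 of the 83, beside 3656 of all 17584 tested genes. Among the 83, differences were positive for 44 and negative for 39, with a median of 0.05 on the log2 scale against 0.01 over all tested genes. Libraries of the genotypes lay apart for 27.7% of the 83, close to the 27.4% of all tested genes.

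Among 8 other receptors and co-receptors 7 were tested and 0 were called, with a median difference of 0.06. The smallest p values belonged to Acvr1, a type I receptor for BMPs and activins (0.24, limma adjusted p = 0.264), Tgfbr3, the co-receptor betaglycan (0.33, limma adjusted p = 0.288), and Acvr1b, the type I receptor for activins (-0.20, limma adjusted p = 0.309). The groups overlapped for all 7. Leaving out 1 library moved Tgfbr3 between 0.20 and 0.45 and Acvr1b between -0.26 and -0.12.

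All 12 Smads and Smad regulators were tested and 0 were called, with a median difference of 0.08. Groups lay apart for 6 of them, 5 higher and 1 lower in PgrCreCdc42f/f oviducts, where 27.4% of all tested genes had groups apart (13.5% higher and 13.9% lower). Pmepa1, a feedback inhibitor that TGF-beta induces, had 13.6, 13.5 and 13.2 RPKM in PgrCreCdc42f/f oviducts, against 11.2, 10.7 and 11.3 RPKM in Cdc42f/f oviducts. Its difference was 0.28 (95% interval 0.11 to 0.44, limma adjusted p = 0.0941). Skil, a repressor of Smad activity, had a difference of 0.40 (limma adjusted p = 0.145), and the inhibitory Smad6 one of -0.36 (limma adjusted p = 0.187).

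All 14 genes of latency and activation were tested and 0 were called, with a median of 0.02. Itgav, the integrin chain that frees latent TGF-beta, had a difference of 0.38 (limma adjusted p = 0.148) and Nrros, which tethers latent TGF-beta on macrophages and microglia, one of 0.39 (limma adjusted p = 0.198). Fbn2, a fibrillin of microfibrils, averaged 0.584 ± 0.173 RPKM in PgrCreCdc42f/f and 1.13 ± 0.384 RPKM in Cdc42f/f libraries (-0.84, limma adjusted p = 0.205). Among 10 genes of inhibin and extracellular antagonists 9 were tested and 0 were called, with a median of 0.07. Bambi, a membrane pseudoreceptor that blocks type I receptors, had 5.45, 5.49 and 5.67 RPKM in PgrCreCdc42f/f oviducts, against 7.09, 6.92 and 7.46 RPKM in Cdc42f/f oviducts. Its groups lay apart, and the difference of -0.36 had a limma adjusted p of 0.0717. Wfikkn2, an antagonist of growth and differentiation factors, had 0.37 and Bgn, the matrix proteoglycan biglycan, 0.18 on the log2 scale, with overlapping groups for both. Leaving out 1 library moved Wfikkn2 between 0.15 and 0.62 and Bgn between 0.04 and 0.34.

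Genes known to respond to TGF-beta had differences of both signs. Of 20 listed, Ltbp2 among them, 18 were tested, 1 was called higher and 0 lower in PgrCreCdc42f/f oviducts. Differences were positive for 6 and negative for 12, with a median of -0.25 on the log2 scale. Tgfbi, a secreted matrix protein named for its induction by TGF-beta and also made by macrophages, was measured at 85.7, 83.2 and 83.7 RPKM in PgrCreCdc42f/f oviducts, against 60.5, 65.2 and 60.4 RPKM in Cdc42f/f oviducts. The groups lay far apart relative to their spread. Tgfbi rose by 0.44 (SE 0.07, 95% interval 0.27 to 0.61, limma adjusted p = 0.042), and the adjusted p lay between 0.066 and 0.134 when any 1 library was left out, so that each of the 6 libraries was needed for the call. The summed macrophage markers given above were also higher in all 3 PgrCreCdc42f/f libraries, but single markers varied. In PgrCreCdc42f/f replicate 1, where Tgfbi was highest, Adgre1 (4.99 RPKM) and Csf1r (9.33 RPKM) lay below all Cdc42f/f libraries (lowest 5.42 and 9.93 RPKM). The other macrophage markers lay above all Cdc42f/f libraries there. The part of macrophages in the Tgfbi result was not tested.

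The same list held genes whose values lay lower. Itga11, a collagen-binding integrin chain of fibroblasts, had 0.838, 0.991 and 0.986 RPKM in PgrCreCdc42f/f oviducts, against 1.68, 1.84 and 1.43 RPKM in Cdc42f/f oviducts. Its groups lay apart (-0.75, limma adjusted p = 0.0776). Col1a1, a chain of the main fibrillar collagen, had 56.2, 126.1 and 145.6 RPKM in PgrCreCdc42f/f oviducts, against 181.0, 141.8 and 218.3 RPKM in Cdc42f/f oviducts. PgrCreCdc42f/f replicate 1 was far below the rest, and the groups overlapped (-0.81, limma adjusted p = 0.275). The difference was -0.39 without that library and reached -1.08 without PgrCreCdc42f/f replicate 3. The study itself reported, by staining, collagen I deposited under the isthmus epithelium of this genotype, and not in controls. It also named collagen metabolism among the terms enriched in its up-regulated genes. The staining was of protein in the isthmus, while the values here are RNA of oviducts with no segment singled out. PgrCreCdc42f/f replicate 1 also set the median of the list, which was 0.02 when this library was left out. Of 8 fibroblast markers, Col1a1 included, 4 had positive and 4 negative differences (median -0.13 on the log2 scale, 0 called). Their sums, to which Col1a1 itself adds, were 406.9 to 517.2 RPKM in PgrCreCdc42f/f and 511.4 to 684.4 RPKM in Cdc42f/f libraries. The part of fibroblasts in these values was not tested.

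**Figure D3:**
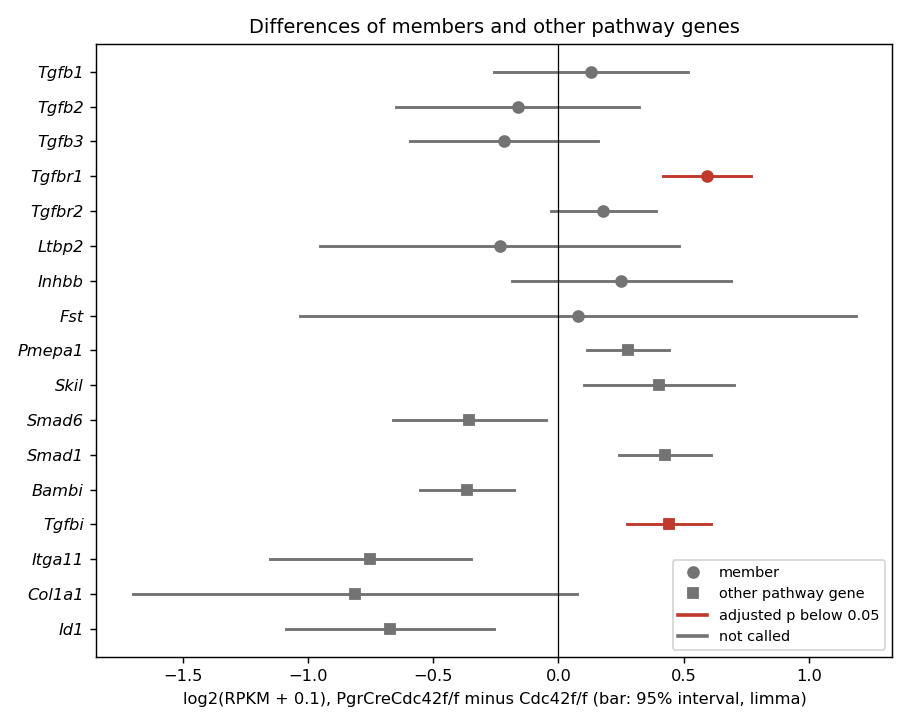
Differences of log2(RPKM + 0.1), PgrCreCdc42f/f minus Cdc42f/f (horizontal axis), for the 8 tested members (circles) and 9 other pathway genes (squares), with 95% intervals from limma as bars. The squares were picked from the genes with the smallest limma p values of their lists, out of 83 tested pathway genes, and do not stand for those lists. The 2 called genes, in red, are Tgfbr1 at 0.59 and Tgfbi at 0.44, and the widest interval among members is that of Fst.

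The neighbouring BMP branch was read from a pair of lists. Of 24 BMP, GDF and Nodal ligands 10 were tested and 0 were called, with a median of 0.07, and Gdf1, Inhbc and Inhbe were listed at 0 in all libraries. Gdf15, a stress-induced ligand, averaged 1.604 ± 0.331 RPKM in PgrCreCdc42f/f and 1.002 ± 0.207 RPKM in Cdc42f/f libraries (0.63, limma adjusted p = 0.181). Bmp7, a ligand of epithelia and mesenchyme, had a difference of 0.39 (limma adjusted p = 0.185), and Bmp1, a protease that trims procollagens, one of 0.24 (limma adjusted p = 0.459). Bmp1 had 0.44 without PgrCreCdc42f/f replicate 1 (limma adjusted p = 0.0657), 0.14 without replicate 2 and 0.15 without replicate 3 of that group. Of 16 BMP receptors, antagonists, Smads and Id targets 14 were tested and 0 were called, and groups lay apart for 5 higher and 3 lower genes, beside 13.5% higher and 13.9% lower of all tested genes. Smad1, which carries BMP signals, was measured at 8.69, 8.54 and 9.14 RPKM in PgrCreCdc42f/f oviducts, against 6.39, 6.75 and 6.41 RPKM in Cdc42f/f oviducts. Its difference of 0.43 (95% interval 0.24 to 0.61) had a limma adjusted p of 0.0529, just short of the threshold. Id1, a transcriptional target of BMP signals, had 18.6, 22.8 and 23.9 RPKM in PgrCreCdc42f/f oviducts, against 32.1, 29.3 and 43.7 RPKM in Cdc42f/f oviducts. The groups of Id1 lay apart as well, on the other side (-0.67, limma adjusted p = 0.102), as did those of the BMP receptor gene Bmpr1b (-0.38, limma adjusted p = 0.1).

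The genes most like the 3 members with the smallest p were taken by Pearson correlation of log2(RPKM + 0.1) across the 6 libraries, among 8501 other tested genes that averaged 5 RPKM or more. With so many genes and only 6 libraries, each of which gives all its values at 1 depth, these high correlations are given as a description. For Tgfbr1 they were Osbpl11 (r = 0.996), Lnpep (0.993), Atp6ap1 (0.993) and Apobec3 (0.992). Picked for their likeness to Tgfbr1, all of these lay higher in the 3 PgrCreCdc42f/f libraries, so that side is no separate result. Of these only Apobec3, a cytidine deaminase that restricts retroviruses, was itself called (0.79 on the log2 scale, limma adjusted p = 0.0255). The Apobec3 call held without PgrCreCdc42f/f replicate 1 (limma adjusted p = 0.046), and was lost without any 1 of the other 5 libraries (0.0605 to 0.0928) and with the replicate number as a block (0.117). For Tgfbr2 they were Acvr1 (r = 0.997), a receptor of the same family, Tubb6 (0.995), Sbk1 (0.995) and Inafm2 (0.992). For Tgfb3 they were Myof (r = 0.997), Gtf3c5 (0.993), Scaf1 (0.9752) and Ppfibp2 (0.964), all with overlapping groups.

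Leaving out each library in turn moved some members little and others past 0. The differences of Tgfbr1 lay between 0.56 and 0.62, those of Inhba between 0.73 and 1.07, and those of Tgfbr2 between 0.14 and 0.24 on the log2 scale. Tgfb3 stayed between -0.31 and -0.06, Tgfb1 between 0.01 and 0.25 and Inhbb between 0.09 and 0.35. Fst lay between -0.34 and 0.47 and Tgfb2 between -0.32 and 0.07, so their signs depended on the libraries used.

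**Figure D4:**
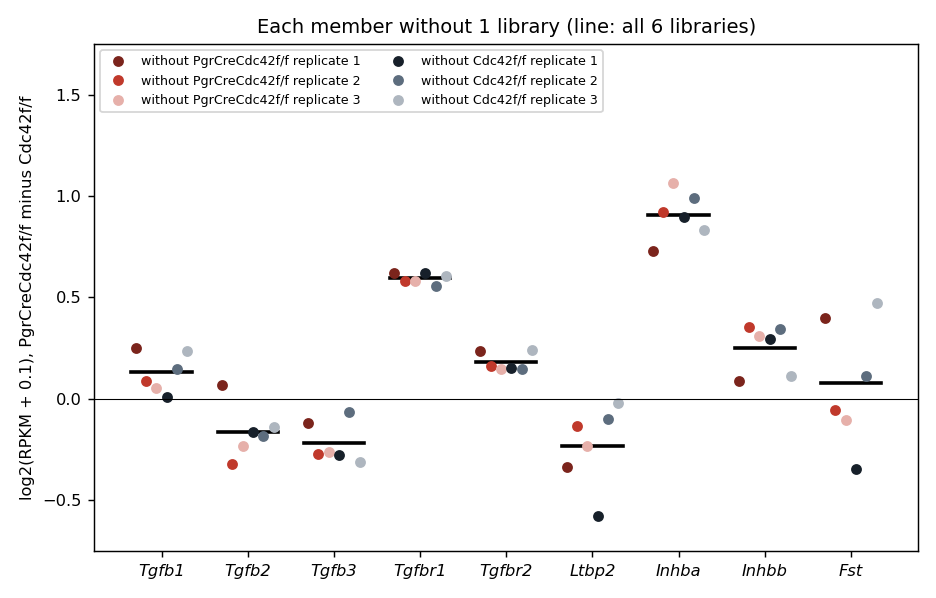
Difference of log2(RPKM + 0.1), PgrCreCdc42f/f minus Cdc42f/f (vertical axis), of each of the 9 genes without 1 library (points, coloured by the library left out) and with all 6 (black lines). Points of Tgfbr1 stay between 0.56 and 0.62 and those of Inhba between 0.73 and 1.07, while those of Tgfb2 and Fst fall on both sides of 0.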

How the data were processed

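RNA was measured in 3 PgrCreCdc42f/f and 3 Cdc42f/f oviduct libraries from day 2 of pregnancy, and the sequencer was a BGISEQ-500. Groups and replicate numbers came from sample titles. The authors deposited a table of RPKM values. The submitters' processing notes name HISAT2, edgeR and mm10 (GRCm38), whereas the study's methods name Tophat2 for this step, and which of them made the table and whether strand was used are not given in the sources used here. All value columns were matched to samples by name.

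Multiplied by GENCODE M21 exon lengths, 98.8% of 35358 rows came out as whole reads, to within 0.01, in each of the 6 libraries. Library totals of these reads, 42.4 to 46.4 M, give the depth. Even numbers made up 64.9% of read numbers from 1 to 20, so reads may not all be separate fragments.

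Genes of at least 0.5 RPKM in at least 3 libraries entered limma (version 3.58.1, run in R 4.3.3) as log2(RPKM + 0.1), with a trended eBayes prior, no covariates and two-sided tests, with Benjamini-Hochberg adjustment over all 17584 tested genes and a threshold of 0.05. This scale understates the change of low genes. Ratios and single values were compared by exact permutation tests in scipy 1.17.1. The limma script was tested on simulated data. Members and gene lists were chosen with earlier results of these data known, so they are no independent evidence. Named are Cdc42, Pgr, the members, from each pathway list the called genes and the 3 smallest p values, and for the 3 members with the smallest p the 4 most similar genes with at least 5 RPKM, leaving out predicted genes. Marker genes are named to describe the tissue or beside the values of other genes, and whether those values depend on them was not tested. The alternatives tried were a pseudocount of 1 or of 0.01, no filter, a mean of at least 2 RPKM, median-ratio scaling, quantile normalization, no trend, the replicate number as a block, voom on recovered reads, and leaving out each library. A filter of 0.2 RPKM in 3 libraries and voom on genes of at least 10 reads in 3 libraries were added after seeing the data.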

Additional observations from a re-analysis of the deposited data

How the results depend on the processing

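Called genes numbered 134 higher and 157 lower in PgrCreCdc42f/f oviducts. They were 57 and 51 with no filter, 75 and 112 with no variance trend, 199 and 221 with voom on recovered reads, 205 and 233 with voom at 10 reads or more (added after seeing the data), and 0 and 0 with the replicate number as a block. Leaving out 1 library gave 9 to 132 higher and 3 to 179 lower. Deviations from the group means, over all tested genes, hardly correlated between same-numbered libraries (r = -0.03, -0.07 and 0.08). With 3 libraries per group this cannot exclude that the numbers pair them. With the block, members called higher were 0 (Tgfbr1 adjusted p 0.119 in limma) and pathway genes called higher were 0. Members called higher were 0 to 1 when 1 library was left out, and 1 under every other alternative, while members called lower were 0 throughout. Pathway genes called higher were 2 at a mean of at least 2 RPKM, where Smad1 joined Tgfbi (limma adjusted p = 0.0437 each), and 0 with no filter, no trend, either voom fit and in all fits that left out 1 library, the limma adjusted p of Tgfbi being 0.0765, 0.0733, 0.0505 and 0.052 in the first 4. Without 1 library, Tgfb2 ranged from -0.32 to 0.0677, Fst from -0.34 to 0.47 and Ppfibp2 from -0.17 to 0.0231 on the log2 scale. The Inhba share difference ranged from 2.49 to 3.37 percentage points, that of Tgfb1 from 2.12 to 4.74, of Tgfb2 from -1.39 to 1.01, of Tgfb3 from -5.35 to -0.73, and the log2 subunit ratio from -0.35 to 0.71. Depth limits Inhba most, with 76 to 245 reads.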

Other observations

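Tagln, a smooth muscle gene that responds to TGF-beta, was listed at 2.10, 2.32 and 2.08 RPKM in PgrCreCdc42f/f libraries and at 1.79, 1.51 and 2.41 RPKM in Cdc42f/f libraries. Acta2, smooth muscle actin, lay between 1347 and 1567 RPKM in PgrCreCdc42f/f and between 937.4 and 1489 RPKM in Cdc42f/f libraries. Of the exon bases of Tagln 67.9% are shared with the opposite-strand genes Pcsk7 and Gm48529, and whether strand was used in counting is not given, so its level is uncertain. Tagln was singled out after its values were seen.

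Ovarian Cyp11a1, the enzyme that opens steroid synthesis, had 200 recovered reads in Cdc42f/f replicate 3 and between 4 and 14 in each of the other 5 libraries, and Inha, the inhibin alpha subunit, was highest there too, at 8.402 RPKM. Inha lay between 4.603 and 6.11 RPKM in PgrCreCdc42f/f libraries and between 3.76 and 8.402 RPKM in Cdc42f/f libraries. Star, which moves cholesterol into mitochondria, lay between 3.33 and 4.87 RPKM in PgrCreCdc42f/f libraries and between 3.28 and 4.08 RPKM in Cdc42f/f libraries, with Cdc42f/f replicate 3 the lowest of the 6. Foxl2, a granulosa cell regulator, lay between 6.44 and 7.67 RPKM in PgrCreCdc42f/f libraries and between 4.13 and 7.77 RPKM in Cdc42f/f libraries, with Cdc42f/f replicate 3 the highest. Amh, made by granulosa cells, had 0.161 RPKM in Cdc42f/f replicate 3, within the range of the other libraries, and Lhcgr, the receptor for luteinizing hormone, had its highest value there, on 31 reads. In that library Fst was the highest of all 6 as well. Over replicates 1 to 3, Inha was 6.105, 5.875 and 4.603 RPKM in PgrCreCdc42f/f and 3.76, 4.904 and 8.402 RPKM in Cdc42f/f libraries. Fst over the same replicates was 0.979, 1.92 and 2.06 RPKM in PgrCreCdc42f/f and 0.782, 1.56 and 2.63 RPKM in Cdc42f/f libraries. The part of ovarian RNA in the Fst values was not tested.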
